A study of Mus musculus with 40 samples.

Results

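Tumors of 10 of the 40 mice of a study of CT26 tumors were compared, namely 5 mice treated with anti-TGF-β + anti-PD1 FcS and 5 mice treated with anti-TGF-β alone, chosen by the treatment tag of each sample. The difference between these groups is the addition of anti-PD-1 to pan-TGF-β blockade, measured across all genes of the tumor RNA. All mice were BALB/c mice injected s.c. with 1000000 CT26 cells, a mouse colon carcinoma line, and each was a separate animal. The mAbs were given i.p. on days 6, 9 and 12, and the tumors were taken on day 13. Anti-TGF-β was clone 1D11, which neutralizes all TGF-β isoforms, and anti-PD1 FcS was an Fc-silent mAb against PD-1. The study also had mice given an isotype control, anti-PD1 FcS alone, or mAbs against GARP:TGF-β1 complexes with intact (WT) or disabled (FcD) Fc regions, each of the latter alone or with anti-PD1 FcS, with 5 mice per group.

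TGF-β binds a pair of kinase receptors, which phosphorylate Smad2 and Smad3, and it restrains T and NK cells while driving fibroblasts to lay down matrix. PD-1 is a receptor on activated T cells that dampens signaling through the T cell receptor when it binds PD-L1 or PD-L2. T and NK cells released from such restraint secrete IFNγ, which acts on neighboring cells to raise genes for antigen presentation, guanylate-binding proteins and T cell-attracting chemokines, and they kill with perforin and granzymes.

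Total counts were 12156621 to 15654917 per tumor with the combination and 12109591 to 15506517 with anti-TGF-β, within the 11931730 to 20680548 of all 40 tumors. Mice 48 and 53 stood apart from the others before any comparison. On the first principal component, which held 42.9% of the variance, mouse 48 (anti-TGF-β) was at 81.4 and mouse 53 (anti-TGF-β + anti-PD-1) at 52.5, and the other 8 were between −28.5 and 5.50. Mouse 48 had the most Ptprc, the pan-leukocyte gene CD45, at 371 CPM (counts scaled to library size), and the most Plin1, an adipocyte lipid-droplet gene, at 28.0 CPM. Mouse 53 followed with 243 CPM of Ptprc and 8.11 CPM of Plin1. Mouse 68 (anti-TGF-β + anti-PD-1) stood apart in immunoglobulin genes, with Igkc at 314 CPM against 2.86 to 59.3 CPM in the other 9. Mice 53, 57, 43, 48 and 59 had Ddx3y, a Y-linked gene, and at most 0.245 CPM of Xist, the RNA that silences an X chromosome, whereas the other 5 mice had 62.7 to 248 CPM of Xist and no Ddx3y. These genes were named after their values were seen. The groups therefore held both kinds of mice in unlike numbers, 2 and 3 with the combination against 3 and 2 with anti-TGF-β. Values are given without these tumors where they decide a result. In whole tumor RNA, fewer cells of a type and less RNA per cell cannot be told apart.

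Adding anti-PD-1 to anti-TGF-β gave no gene that passed the test. With edgeR's quasi-likelihood test on all 40 mice, 0 of 14760 genes (0%) had a Benjamini-Hochberg adjusted p under 0.05, and the lowest adjusted p was 0.5003. At an unadjusted p under 0.05 there were 1453 genes (9.84%), of which 585 (3.96%) were higher and 868 (5.88%) lower with the combination. DESeq2 called 1 of 31287 genes (0.0032%), Myh1, a skeletal muscle myosin, which was listed at 0 in all 5 mice with the combination and at 1.33 CPM in mouse 48 and 0.0816 CPM in mouse 43. The quartiles of all genes were log2 fold changes of −0.18 and 0.13, with a median of −0.02, and 215 genes had a change of at least 1 in size. A set of 22 genes (0.149%) was higher in every mouse of the combination than in every mouse given anti-TGF-β, and 44 (0.298%) were lower in every mouse. The p-values below are unadjusted unless stated, and no gene named below passed the adjusted test in this comparison. Counts of list members at p under 0.05 are to be set against the 3.96% higher and 5.88% lower of all genes, except where a changed setting is named.

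**Figure D1:**
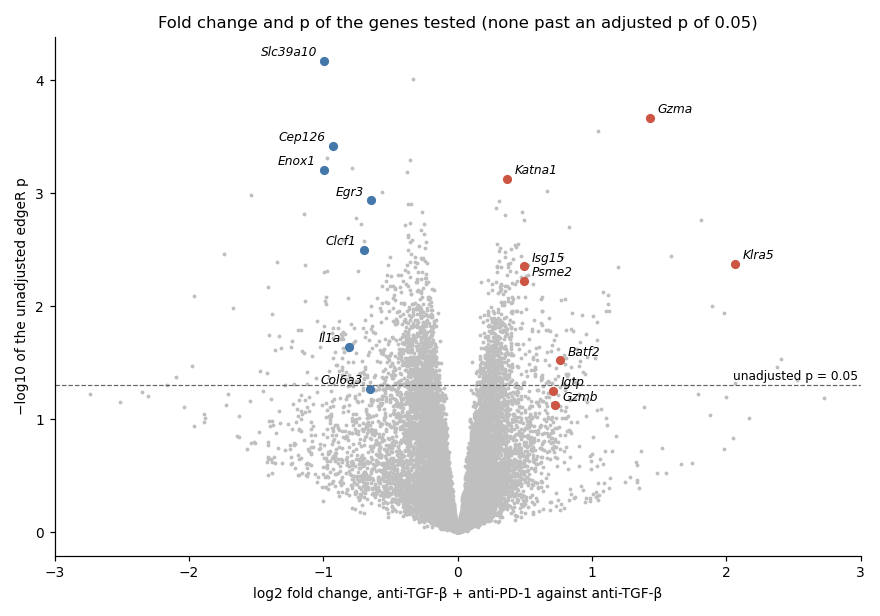
Log2 fold change of anti-TGF-β + anti-PD-1 over anti-TGF-β (x axis) against −log10 of the unadjusted p (y axis), with 1 point for each of the 14760 genes tested except 3 genes with a change beyond 3 in size. Slc39a10 and Gzma stand highest on the lower and the higher side among the labelled genes, and none of the points passes the adjusted test.

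Slc39a10, a zinc importer of the plasma membrane (chr1:46807544-46892852, minus strand, GRCm38), had the smallest p of the lower genes. It was at 38.7, 23.9, 20.2, 30.3 and 20.1 CPM in the 5 tumors with the combination and at 54.5, 47.3, 53.8, 48.0 and 61.0 CPM in the 5 with anti-TGF-β. The groups did not overlap, and mouse 53 was the tumor with the combination that was nearest to the other group. The log2 fold change was −0.99 ± 0.22 (SE, n = 5 per group, edgeR adjusted p = 0.5003), and it stayed between −1.15 and −0.91 when each mouse was left out. Within the mice without Xist the difference was −0.76, and within those with Xist it was −1.23.

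Gzma, the granzyme A protease of cytotoxic T and NK cells (chr13:113093825-113100981, minus strand, GRCm38), was the cytotoxic gene with the smallest p. It was at 32.1, 79.1, 74.1, 79.5 and 115.6 CPM with the combination and at 20.9, 27.3, 26.1, 44.1 and 22.8 CPM with anti-TGF-β. In 4 of 5 mice it was above all 5 mice given anti-TGF-β, and mouse 53 was the exception. The log2 fold change was 1.43 ± 0.35 (SE, n = 5 per group, edgeR adjusted p = 0.5003), with 1.23 to 1.66 when each mouse was left out, 1.03 within the mice without Xist and 1.47 within those with it.

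**Figure D2:**
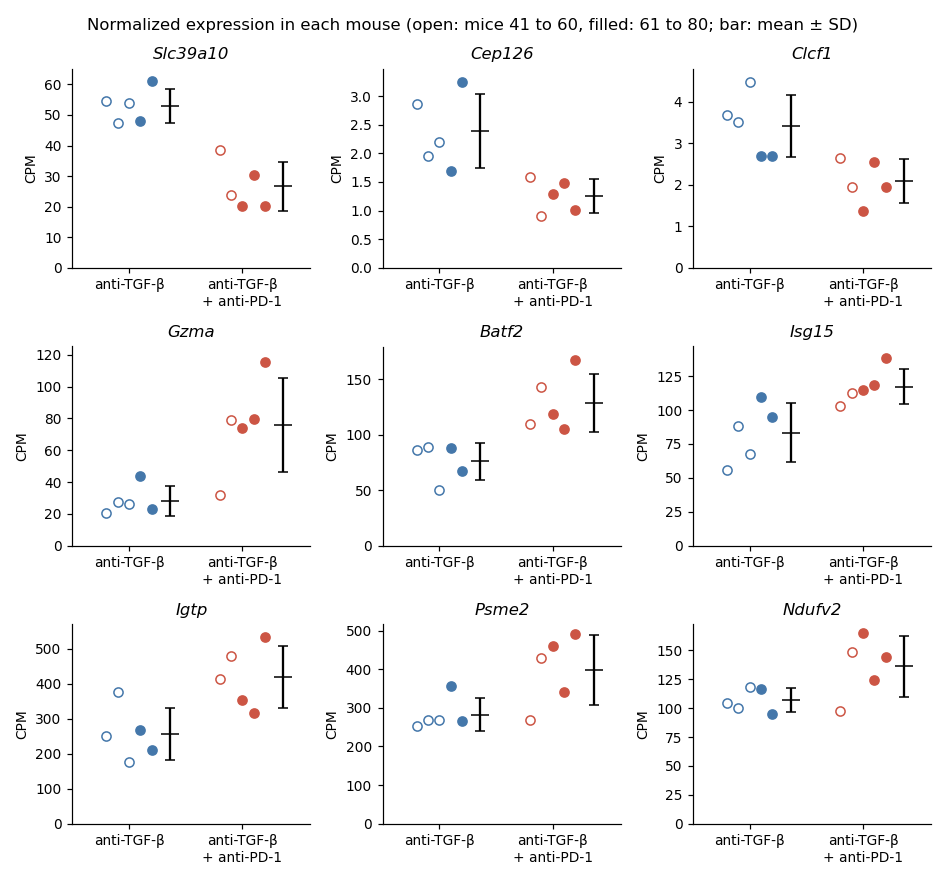
CPM of 9 genes in each tumor (y axes from 0), 1 point per mouse, for anti-TGF-β and anti-TGF-β + anti-PD-1, with open points for mice 41 to 60, filled points for mice 61 to 80, and the mean ± SD of each group beside them. Slc39a10, Cep126 and Clcf1 are lower and Batf2 is higher in all 5 mice with the combination, whereas Gzma, Isg15, Igtp, Psme2 and Ndufv2 overlap between the groups.

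The other cytotoxic genes lay on both sides of 0, none at p under 0.05. Of 16 genes for cytotoxic molecules that passed the filter on low counts, 1 was higher at p under 0.05 (Gzma) and none lower, 11 were above 0, and their median log2 fold change was 0.08, against −0.02 for all genes tested, with 0.01 without mouse 43 and 0.30 without mouse 59. Gzmb, the granzyme B protease, was at 81.8 to 135 CPM with the combination and 45.1 to 88.9 CPM with anti-TGF-β, with a log2 fold change of 0.73 ± 0.40. Prf1, the pore-forming perforin, was at 39.5 to 66.5 and 29.4 to 65.3 CPM, so that the groups overlapped nearly in full, with a log2 fold change of 0.17 ± 0.39. Gzmg, a granzyme of a cluster of near-identical copies between which reads may have been split, had the largest log2 fold change of the list in size, −1.51 ± 1.05. It was at 14.9, 21.6, 18.4, 4.04 and 13.3 CPM with the combination and at 6.28, 3.98, 182, 13.7 and 0.490 CPM with anti-TGF-β, so that its direction rested on mouse 59, without which the log2 fold change was 1.26. Ifng, the cytokine IFNγ, was at 2.06 to 4.51 CPM with the combination and 1.04 to 3.12 CPM with anti-TGF-β, with a log2 fold change of 0.90 ± 0.46.

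Of 14 listed NK cell genes, 11 passed the filter, 2 were higher at p under 0.05 (against 3.96% of all genes) and none lower. Of the 11, 7 were above 0, with a median of 0.34, which was 0.20 without mouse 59 and 0.54 without mouse 48. The 2 were Gzma and Klra7, an inhibitory Ly49 receptor of NK cells, which was at 1.97 to 2.90 CPM in the 5 mice with the combination and 1.14 to 1.82 CPM in the others, without overlap (log2 fold change 0.68 ± 0.31). Klra5, another Ly49 receptor gene outside this list, was at 0.379 to 1.08 CPM against 0 to 0.304 CPM, a low level at which few reads decide the value. Ly49 genes are near-identical copies of each other, so reads may have been split between them. Ncr1, the activating NKp46 receptor, was at 6.95 to 13.4 and 4.56 to 11.5 CPM, which overlap. Trdc, the constant region of the γδ T cell receptor, was at 2.57 to 3.77 CPM with the combination and 0.816 to 2.65 CPM with anti-TGF-β, with a log2 fold change of 0.80 ± 0.32.

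The lists for the T cell receptor complex and for T cell exhaustion had medians below 0, whereas other T cell lists did not. The median was 0.12 for 12 naive and memory T cell genes (−0.07 to 0.52 when each mouse was left out). It was 0.15 for 13 regulatory T cell genes (−0.002 to 0.31) and 0.60 for 5 T cell cytokines (0.28 to 0.95). The 19 genes of the T cell receptor complex and its coreceptors had a median of −0.12, 1 of them higher at p under 0.05 (Trdc) and none lower, and 18 checkpoint and exhaustion genes had a median of −0.06 with none at p under 0.05. Cd8a, the coreceptor of cytotoxic T cells, was at 18.04, 9.29, 9.22, 4.20 and 11.5 CPM with the combination and at 8.57, 39.7, 6.15, 15.4 and 22.9 CPM with anti-TGF-β. Pdcd1, which encodes PD-1, was at 2.31 to 10.8 CPM against 4.65 to 21.99 CPM, with a log2 fold change of −0.89 ± 0.62. Tox, a transcription factor of exhausted T cells, was at −0.98 ± 0.57 and Cxcr6, a chemokine receptor of tissue T cells, at −1.09 ± 0.79 on the log2 scale. The groups overlapped for all 4 genes, and mouse 48 had the highest Cd8a, Pdcd1 and Cxcr6. Without mouse 48 the median of the T cell receptor list was 0.32 and that of the checkpoint list 0.29. Foxp3, the regulatory T cell factor, was at 1.21 to 3.41 and 0.943 to 3.12 CPM, and Lrrc32, which encodes GARP, at 3.54 to 9.70 and 3.03 to 14.4 CPM.

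Interferon-response genes were shifted to the higher side, with few members past p under 0.05. Of 22 core genes of IFNγ signaling, 3 were higher at p under 0.05 (against 3.96% of all genes) and none lower (against 5.88%). Of the 22, 18 were above 0, and the median was 0.19, or 0.39 without mouse 48. Batf2, an interferon-induced transcription factor (chr19:6140983-6172476), was the gene of this list without overlap. It was at 109, 143, 118, 105 and 168 CPM with the combination and at 86.1, 89.0, 50.5, 88.0 and 67.0 CPM with anti-TGF-β, a log2 fold change of 0.76 ± 0.34. Socs1, a feedback inhibitor of cytokine signaling, was at 33.5 to 49.7 CPM against 21.9 to 39.8 CPM (log2 fold change 0.45 ± 0.20). It overlapped between the groups, as did Irf1, an interferon-induced transcription factor (0.44 ± 0.25).

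No gene of the GTPases that IFNγ induces against intracellular microbes was at p under 0.05. The 11 guanylate-binding protein genes had a median of 0.35 and the 6 measured immunity-related GTPases a median of 0.43. The first was 0.70 without mouse 48 and 0.21 without mouse 59, and the second 0.62 and 0.32. Igtp, an immunity-related GTPase, was at 317 to 534 CPM with the combination and 177 to 376 CPM with anti-TGF-β (log2 fold change 0.71 ± 0.36). Gbp2 was at 415 to 688 CPM against 222 to 543 CPM (0.61 ± 0.38). Guanylate-binding protein genes are close copies of each other, so their reads may have been split. Of the 206 measured genes of an experimental IFNγ signature, a set of human genes induced by IFNγ in cultured cells and matched to mouse by symbol, 25 were higher and 4 lower at p under 0.05 and the median was 0.10. Of the experimental TNFα and IL-1β signatures, built in the same way, the first had 19 of 277 genes higher and 10 lower with a median of 0.02, and the second 15 of 268 higher and 8 lower with a median of 0.03. Beside these counts, 3.96% of all genes were higher and 5.88% lower. Without mouse 48 the medians of the IFNγ, TNFα and IL-1β signatures were 0.21, 0.21 and 0.19, and without mouse 53 they were 0.09, −0.04 and −0.04.

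Genes named for type I interferon were also on the higher side. Of 50, 7 were higher at p under 0.05 (against 3.96% of all genes) and none lower (against 5.88%). Of the 50, 41 were above 0, and the median was 0.15, with 0.06 without mouse 59, 0.24 without mouse 62 and 0.25 without mouse 48. Isg15, a ubiquitin-like modifier, was at 103, 113, 115, 118 and 139 CPM with the combination and at 55.8, 88.6, 67.5, 110 and 94.7 CPM with anti-TGF-β (log2 fold change 0.49 ± 0.16). In 4 of 5 mice it was above all mice given anti-TGF-β. Ifi204, a DNA sensor of the p200 family, had a log2 fold change of 0.32 ± 0.12 and Ifi35 of 0.40 ± 0.15. Xaf1, an interferon-induced inhibitor of XIAP, was at 91.9 to 113 CPM against 61.5 to 89.7 CPM without overlap, and it was picked after its values were seen. The median of the list was 0.39 within the mice without Xist and −0.09 within those with it.

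The promoters of these genes were read from RefSeq (GRCm38.p6) to show the sequence on which interferon-activated factors act. The windows below hold the 250 bases before the annotated start of 3 genes named here, 5′ to 3′ in the direction of the gene, and were picked because they hold the motif. Capitals mark matches to GAAANNGAAA, a pattern like the interferon-stimulated response element, on either strand. The first is chr4:156200819-156201068 (minus strand), the second chr11:58199306-58199555 (plus strand) and the third chr13:113100982-113101231 (minus strand).
Isg15: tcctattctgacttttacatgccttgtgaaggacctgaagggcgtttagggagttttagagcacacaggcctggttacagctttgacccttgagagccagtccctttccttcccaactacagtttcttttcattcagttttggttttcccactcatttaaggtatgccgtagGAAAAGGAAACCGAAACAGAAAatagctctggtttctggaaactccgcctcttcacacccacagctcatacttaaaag
Igtp: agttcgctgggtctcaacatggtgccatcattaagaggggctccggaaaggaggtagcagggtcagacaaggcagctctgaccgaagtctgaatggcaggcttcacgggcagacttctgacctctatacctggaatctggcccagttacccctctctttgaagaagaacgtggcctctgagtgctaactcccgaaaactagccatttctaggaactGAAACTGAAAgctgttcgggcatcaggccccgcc
Gzma: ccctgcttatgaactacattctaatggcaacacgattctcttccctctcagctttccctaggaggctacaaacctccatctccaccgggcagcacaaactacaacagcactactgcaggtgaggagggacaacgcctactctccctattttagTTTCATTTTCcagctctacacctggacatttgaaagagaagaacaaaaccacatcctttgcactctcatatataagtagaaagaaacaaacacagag
Isg15 held 3 overlapping matches that began 78, 72 and 66 bases before the start, Igtp held 1 at 34 bases and Gzma 1 on the other strand at 97 bases.

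Over windows of 250 bases before to 50 after the start, the motif was found in 1131 of 32851 RefSeq promoters (3.44%). It was found in 18 of the 37 type I interferon-stimulated genes with a window (48.6%), in 5 of 5 guanylate-binding protein genes and in 5 of 5 immunity-related GTPases, but in 2 of 15 core IFNγ genes (13.3%). Of the nuclear respiratory chain genes it was in 2 of 64 (3.12%). The shorter pattern TTCNNNGAA, like the IFNγ-activated site (GAS), was in 2726 of all promoters (8.3%) and in 5 of 15 core IFNγ genes (33.3%), 4 of 5 immunity-related GTPases, 2 of 5 guanylate-binding protein genes and 6 of 37 type I interferon-stimulated genes (16.2%). The first pattern was searched on both strands, whereas the second reads the same on both. A match describes the letters of the window and does not show binding.

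Antigen presentation genes were on the higher side in both classes. For MHC class I presentation, 7 of 22 genes were higher at p under 0.05 (against 3.96% of all genes) and none lower (against 5.88%). Of the 22, 20 were above 0, and the median was 0.27, with 0.31 within the mice without Xist and 0.24 within those with it. The summed level of the list was 14490 to 18450 CPM with the combination and 12530 to 15610 CPM with anti-TGF-β. Psme2, a subunit of the PA28 proteasome activator, was at 269, 430, 459, 341 and 491 CPM against 252, 267, 269, 358 and 266 CPM (log2 fold change 0.49 ± 0.17). Its partner Psme1 had a log2 fold change of 0.38 ± 0.15 and Psmb10, a catalytic subunit of the immunoproteasome, of 0.55 ± 0.22. Mouse 72 (anti-TGF-β) was within the range of the combination for these 3 genes, and mouse 53 was within the range of anti-TGF-β.

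For MHC class II presentation, all 14 genes were above 0 and the median was 0.58, but none was at p under 0.05. The summed level was 5523, 5357, 4363, 3156 and 6119 CPM in mice 53, 57, 62, 66 and 68 and 2574, 6566, 1758, 3204 and 3108 CPM in mice 43, 48, 59, 72 and 79. Mouse 48 was thus above every mouse with the combination, and the median was 1.00 without it, 0.36 without mouse 59 and 0.33 without mouse 68. H2-DMb1, a chain of the peptide editor H2-DM, was at 32.6 to 78.8 and 16.3 to 55.5 CPM (log2 fold change 0.70 ± 0.45). Cd274, which encodes the PD-1 ligand PD-L1, was at 79.4 to 231 and 56.7 to 183 CPM (0.37 ± 0.41). Of the T cell-attracting chemokines, Cxcl10 was at 104 to 195 and 71.5 to 151 CPM (0.38 ± 0.23) and Cxcl9 at 233 to 361 and 121 to 410 CPM (0.37 ± 0.39).

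**Figure D3:**
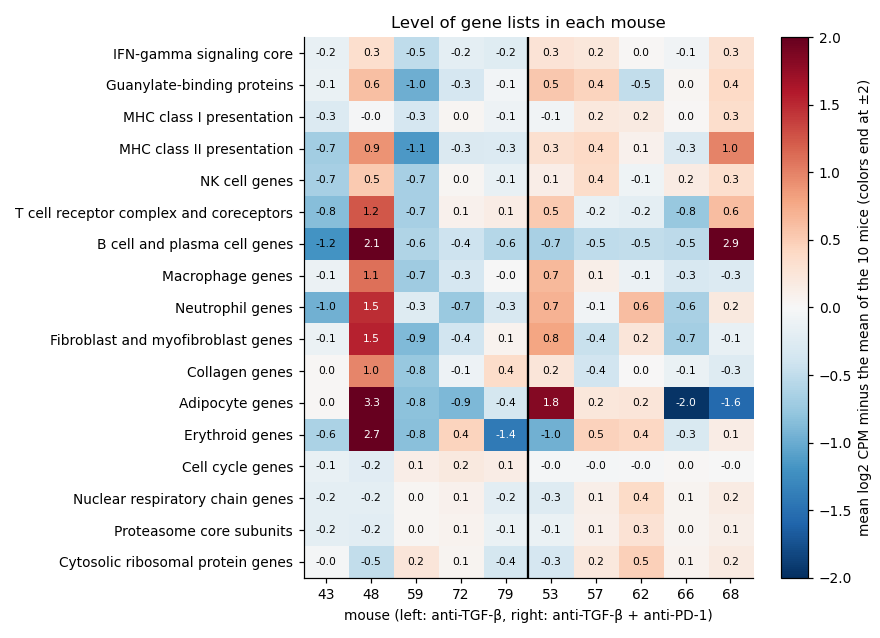
Mean log2 CPM of each gene list (lines) in each mouse (columns, anti-TGF-β on the left and anti-TGF-β + anti-PD-1 on the right), shown as the difference from the mean of the 10 mice and colored up to 2 in size. Mouse 48 is above the other mice given anti-TGF-β in the macrophage, neutrophil, fibroblast and adipocyte lists, and mouse 68 is the highest in the B cell list.

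Of the myeloid lists, the 19 macrophage genes had a median of 0.08 with no gene at p under 0.05, and it was −0.21 without mouse 53 and 0.43 without mouse 48. Adgre1, the macrophage marker F4/80, was at 83.5 to 220 CPM with the combination and 47.3 to 328 CPM with anti-TGF-β. C1qa, a complement chain made by macrophages, had a log2 fold change of 0.47 ± 0.28. The 11 neutrophil genes had a median of 0.06, which was 0.85 without mouse 48 and −0.17 without mouse 72, with none at p under 0.05. The 12 monocyte genes and chemokines had a median of 0.23 (0.13 without mouse 43 and 0.39 without mouse 48) with 1 gene higher, the 6 Fc receptors for IgG 0.24 (0.12 without mouse 59 and 0.54 without mouse 48) with none, and the 15 complement genes 0.11 (just below 0 without mouse 53 and 0.58 without mouse 48) with none.

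B cell and plasma cell genes rested on single tumors. Jchain, the joining chain of secreted IgM and IgA, was at 84.2 CPM in mouse 68 and 0.741 to 2.35 CPM in the other 4 mice with the combination, and at 15.5 CPM in mouse 48 and 0.653 to 2.96 CPM in the other 4 given anti-TGF-β. The median of 16 genes was 0.52, but −1.47 without mouse 68 and 2.65 without mouse 48. Lymph node stroma and follicle genes, of which 3 of 7 passed the filter, were highest in the same tumors, and the summed level of the list was 1.57 to 62.8 CPM with the combination and 0.760 to 21.3 CPM with anti-TGF-β. The part of lymph node tissue in these values was not tested.

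Among 18 inflammatory cytokine and IL-1 family genes, 3 were lower at p under 0.05 (against 5.88% of all genes) and none higher (against 3.96%). Of the 18, 9 were above 0, and the median was −0.01, with −0.14 without mouse 43 and 0.12 without mouse 48. Without mice 48 and 53, 3 were higher and 1 lower. Il1a, an alarmin cytokine, was at 1.52, 1.17, 1.29, 1.07 and 1.55 CPM with the combination and 2.45, 2.96, 2.58, 1.75 and 1.90 CPM with anti-TGF-β. The groups did not overlap, at a low level (log2 fold change −0.81 ± 0.34). Its receptor chains Il1rap and Il1r1 had log2 fold changes of −0.38 ± 0.15 and −0.34 ± 0.16. Clcf1, a cytokine of the IL-6 family outside this list, was at 1.36 to 2.65 CPM against 2.69 to 4.48 CPM without overlap (−0.70 ± 0.22), and Egr3, an immediate early transcription factor, was at 5.29 to 7.79 CPM against 7.23 to 13.9 CPM (−0.64 ± 0.18).

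Genes of the TGF-β pathway, which both treatments block, were described by 5 lists. The counts of lower genes in them were few and are to be read beside the 5.88% of all genes that were lower and the 3.96% that were higher. Of 13 genes for TGF-β ligands and their activation, 1 was lower at p under 0.05 (Itgav, the αv integrin chain that frees latent TGF-β, −0.33 ± 0.15) and the median was −0.08, with −0.10 without mouse 48 and −0.03 without mouse 43. Tgfb1 was at 91.2 to 112 and 76.7 to 122 CPM (0.12 ± 0.16), and Tgfb3 had a log2 fold change of −0.04 ± 0.17. Of 17 receptors, Smads and feedback genes, 1 was lower (Ski, a repressor of Smads, −0.25 ± 0.11) and the median was −0.09, with −0.15 without mouse 59 and −0.06 without mouse 48. The 22 TGF-β-induced genes had a median of −0.16 and none at p under 0.05, and the median was 0.13 without mouse 48 and −0.33 without mouse 53. The experimental TGF-β1 signature, made of human genes induced by TGF-β1, had 113 measured genes with a median of −0.14, 1 higher and 4 lower, and a median of 0.10 without mouse 48 and −0.22 without mouse 53. Its version in CD4+ T cells had 2 of 40 genes lower and none higher, with a median of −0.05 (0.13 without mouse 48 and −0.18 without mouse 53).

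Collagen genes had negative log2 fold changes that rested in part on mouse 48. All 19 measured collagen genes were below 0, with a median of −0.27, and Col5a1, a fibril-nucleating collagen, was the gene at p under 0.05, at 111 to 145 CPM against 105 to 250 CPM (−0.39 ± 0.18). Col1a1, the main fibrillar collagen, was at 533, 247, 420, 317 and 286 CPM with the combination and 327, 1181, 247, 383 and 529 CPM with anti-TGF-β. Mouse 48 was the highest, and without it the median of the collagen list was −0.05, and without mouse 59 it was −0.49. The 16 fibroblast genes had a median of −0.21, which was 0.39 without mouse 48, and the 12 adipocyte genes a median of −0.99, which was 0.85 without it. Without both mice 48 and 53 the medians were −0.14 for collagens, 0.14 for fibroblast genes and −0.02 for adipocyte genes. The part of fat or connective tissue taken with the tumor piece in these values was not tested.

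**Figure D4:**
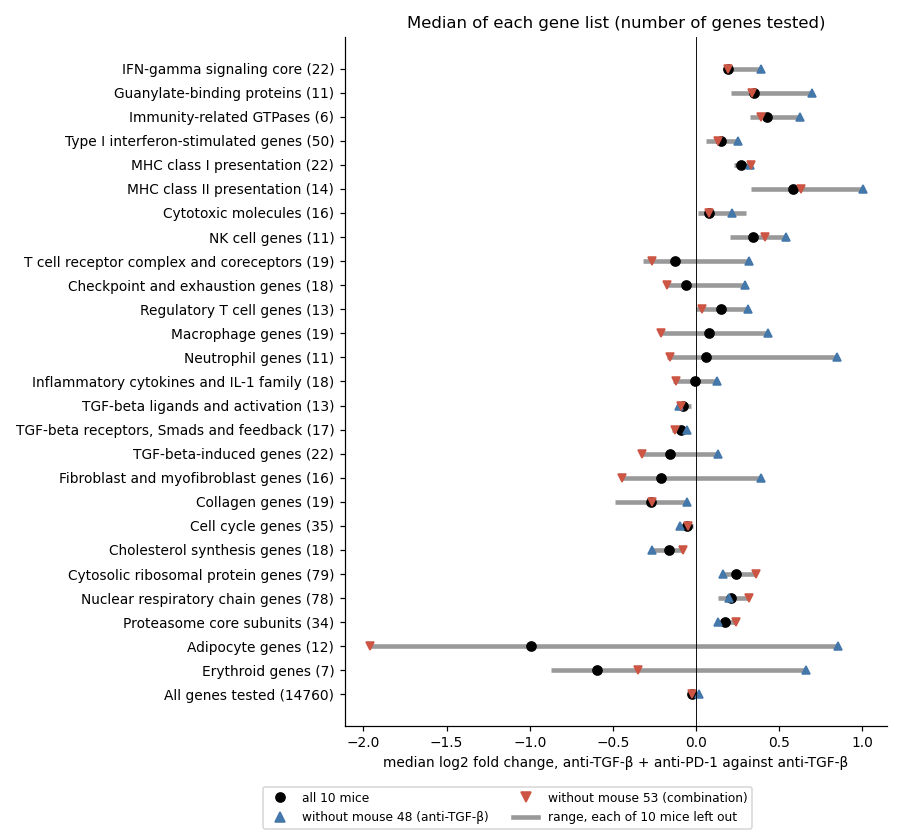
Median log2 fold change of each gene list for anti-TGF-β + anti-PD-1 over anti-TGF-β (x axis), with black points for all 10 mice, triangles for the medians without mouse 48 or without mouse 53, and gray bars for the range when each of the 10 mice is left out. The bars of the adipocyte, erythroid, neutrophil and fibroblast lists cross 0, and those of the MHC class I, respiratory chain and proteasome lists stay above it.

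Respiratory chain and proteasome genes held the largest shares of higher genes at p under 0.05 among the lists, whereas none of the 26 glycolysis and hypoxia genes was at p under 0.05 (median 0.06). Of 78 nuclear genes of the mitochondrial respiratory chain, 29 were higher and 1 lower, against 3.96% and 5.88% of all genes. Of the 78, 70 were above 0, and the median was 0.21, with 0.13 without mouse 62 and 0.32 without mouse 53. The median was 0.05 within the mice without Xist and 0.27 within those with it. Ndufv2, a complex I subunit, was at 97.5, 149, 166, 124 and 145 CPM with the combination and 105, 100.1, 119, 116 and 94.8 CPM with anti-TGF-β (log2 fold change 0.35 ± 0.11). Mouse 53 was within the range of anti-TGF-β, and the other 4 mice were above it. Uqcrh, a complex III subunit, was at 0.45 ± 0.16 and Cox7a2, a complex IV subunit, at 0.30 ± 0.11 on the log2 scale.

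Of 34 core proteasome subunits, 14 were higher and 1 lower, and 33 were above 0, with a median of 0.17. The median was 0.10 within the mice without Xist and 0.18 within those with it. Psmd13, a subunit of the regulatory lid, was at 113 to 149 CPM against 86.7 to 123 CPM (0.30 ± 0.10), and Psmb2, a core subunit, at 109 to 163 CPM against 100.2 to 128 CPM (0.31 ± 0.10). Of 79 cytosolic ribosomal protein genes, 78 were above 0 and the median was 0.24 (0.15 without mouse 62), but 2 were at p under 0.05. Their median was 0.03 within the mice without Xist and 0.39 within those with it. Many processed pseudogenes resemble ribosomal protein genes, so their counts are uncertain. The 12 heat shock genes were all above 0 with a median of 0.24, and the gene at p under 0.05 was Hspa8, a constitutive chaperone, at 1715 to 2062 CPM against 1426 to 1839 CPM (0.27 ± 0.12).

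These shares moved with the length of the gene. With the 12761 genes of known length split by length into 5 groups of equal size, the median log2 fold change was 0.16, 0.05, −0.03, −0.09 and −0.17 from the shortest to the longest group, with 284 genes higher and 30 lower in the shortest and 15 higher and 320 lower in the longest. The difference of short over long genes in each tumor, relative to the 10 tumors, was −0.40, 0.24, 0.53, 0.10 and 0.36 on the log2 scale with the combination and −0.27, −0.33, 0.02, 0.11 and −0.33 with anti-TGF-β. Mouse 53 was the one tumor with the combination below 0. Genes of the same length range as the respiratory chain list had a median of 0.14 and 9.87% of them were higher at p under 0.05. When the trend of each tumor was removed, 13 of 76 respiratory chain genes were higher and 1 lower with a median of 0.05, and 353 of all genes were higher (2.77%) and 550 lower (4.31%). The proteasome list then had 6 higher and a median of 0.11, the ribosomal protein list none and 0.08, the MHC class I list 2 and 0.22, the core IFNγ list 2 and 0.22, the NK cell list 1 and 0.27, and the type I interferon list 3 and 0.13. Of the experimental signatures, that of IFNγ then had 12 of 205 genes higher and 6 lower (median 0.06), that of TNFα 9 of 276 and 6 (0.02), and that of IL-1β 9 of 267 and 9 (0.01). This correction was chosen after seeing the data.

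**Figure D5:**
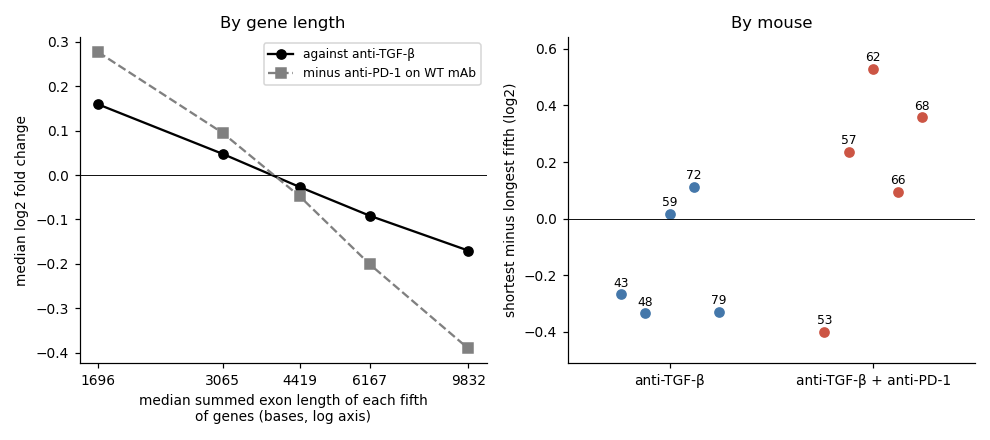
Left, the median log2 fold change (y axis) in each of 5 groups of genes by summed exon length in bases (x axis, log scale), for anti-TGF-β + anti-PD-1 over anti-TGF-β (black) and for its difference from anti-PD-1 on anti-GARP:TGF-β1 WT (gray). Right, the shortest minus the longest group on the log2 scale in each mouse. The black medians run from 0.16 in the shortest group to −0.17 in the longest, and mouse 53 is the lowest of the mice with the combination.

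Of 35 cell cycle genes, 1 was lower at p under 0.05 (Kif11, a spindle motor, −0.36 ± 0.17) and the median was −0.06 (−0.02 without mouse 72 and −0.10 without mouse 48), with Mki67, the proliferation marker, at 151 to 255 and 186 to 248 CPM. Of 18 cholesterol synthesis genes, 3 were above 0, with a median of −0.16 (−0.27 without mouse 48 and −0.08 without mouse 53), and Lss, lanosterol synthase, was the gene at p under 0.05, at −0.41 ± 0.20 on the log2 scale.

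The lists were counted again without the tumors that stood apart. Without mice 48 and 53, a choice made after seeing the data, edgeR called 0 of 14867 genes with a lowest adjusted p of 0.0935, and 1248 genes were higher (8.39%) and 1854 lower (12.5%) at an unadjusted p under 0.05. At that background, 9 of 22 core IFNγ genes were higher (median 0.39), 11 of 22 MHC class I genes (0.40), 6 of 14 MHC class II genes (1.03), 4 of 11 NK cell genes (0.56), 7 of 50 type I interferon genes (0.20) and 46 of 78 respiratory chain genes (0.28), with 1 gene lower, a respiratory chain gene. The largest share was of B cell and plasma cell genes, 11 of 16 higher (median 2.90), the list that rested on mouse 68. Of the myeloid lists, 3 of 11 neutrophil genes (0.66), 4 of 15 complement genes (0.45), 2 of 12 monocyte genes (0.37), 1 of 19 macrophage genes (0.10) and 0 of 6 Fc receptors for IgG (0.44) were higher, and none lower. Against the 12.5% of all genes that were lower, there were 5 lower of 35 cell cycle genes, 3 of 17 TGF-β receptors, Smads and feedback genes, 14 of 113 genes of the experimental TGF-β1 signature, with 6 higher, and 7 of 40 genes of its version in CD4+ T cells, with 3 higher. None was lower of the 22 TGF-β-induced, 19 collagen, 16 fibroblast, 18 cholesterol synthesis and 26 glycolysis and hypoxia genes. The T cell receptor list then had a median of 0.22 with 1 gene higher, and the checkpoint list 0.18 with none. Leaving out mouse 53 alone gave 3725 genes at an unadjusted p under 0.05, and leaving out mouse 62 gave 526.

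The remaining genes without overlap between the groups belong to no single list. On the higher side, Katna1, the catalytic subunit of the microtubule-severing katanin, was at 33.8 to 44.0 CPM against 27.9 to 33.3 CPM (0.37 ± 0.10). Lap3, an aminopeptidase that trims peptides and is induced by IFNγ, was at 239 to 287 CPM against 211 to 234 CPM (0.24 ± 0.10). On the lower side, Cep126, a centrosomal protein, was at 0.909 to 1.59 CPM against 1.68 to 3.25 CPM (−0.93 ± 0.24). Zbtb11, a zinc finger transcription factor, was at 17.5 to 24.7 CPM against 24.8 to 28.5 CPM (−0.39 ± 0.12), and the zinc finger genes Zfp51 and Zfp790 had log2 fold changes of −0.36 ± 0.12 and −0.36 ± 0.11.

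The effect of anti-PD-1 with anti-TGF-β was then set beside its effect on the other backgrounds, which share no mice with it. Anti-PD-1 over isotype gave 0 genes (0%) at an adjusted p under 0.05 in edgeR and 141 (0.955%) unadjusted, with 1 called by DESeq2. Anti-PD-1 over anti-GARP:TGF-β1 WT gave 0 (0%) and 4361 (29.5%), with 619 called by DESeq2, and over anti-GARP:TGF-β1 FcD 0 (0%) and 3083 (20.9%), with 199. The macrophage list had medians of 0.08 with anti-TGF-β, −0.01 with isotype, 0.66 with anti-GARP:TGF-β1 WT and 0.71 with FcD, and the T cell receptor list −0.12, −0.42, 0.61 and 0.79. The values with anti-TGF-β rested on single tumors. Without mouse 48 they were 0.43 for the macrophage list and 0.32 for the T cell receptor list, and without mouse 53 they were −0.21 and −0.27. For MHC class II the medians were 0.58, 0.09, 0.82 and 1.00, and for MHC class I 0.27, −0.12, 0.09 and 0.26. The respiratory chain list had 0.21, 0.05, −0.24 and −0.07.

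The differences between these effects were tested as interactions in edgeR. Against isotype, 0 genes passed the adjusted test (0%; lowest adjusted p 0.101) and 340 (2.3%) were at an unadjusted p under 0.05, led by Enox1, a cell surface oxidase, which was at 0.454 to 0.909 CPM with the combination and 0.858 to 1.55 CPM with anti-TGF-β. DESeq2 called 2, the muscle genes Myh1 and Acta1. Against anti-GARP:TGF-β1 WT, 0 passed (0%; lowest adjusted p 0.0924) and 4529 (30.7%) were at an unadjusted p under 0.05, with 1333 called by DESeq2. Against FcD, 0 passed (0%; lowest adjusted p 0.294) and 2479 (16.8%) did so unadjusted, with none called by DESeq2. Without mouse 53, edgeR called 3965 genes for the interaction with WT, and Enox1 for that with isotype (adjusted p = 0.0323). The length gradient was present here too, with medians from 0.28 in the shortest group to −0.39 in the longest for the interaction with WT.

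Slc39a10 had a log2 fold change of −0.99 ± 0.22 with anti-PD-1 on anti-TGF-β, −0.19 ± 0.22 on isotype, 0.19 ± 0.22 on anti-GARP:TGF-β1 WT and −0.11 ± 0.22 on FcD. The differences were −0.81 ± 0.31, −1.18 ± 0.31 and −0.88 ± 0.31, with adjusted p of 0.960, 0.0924 and 0.294 in edgeR. Gzma was at 1.43 ± 0.35, 0.21 ± 0.34, 0.56 ± 0.34 and 0.80 ± 0.34 in the same order, and its differences of 1.22 ± 0.49, 0.87 ± 0.48 and 0.63 ± 0.48 did not pass either. Eif2ak4, the amino acid sensor kinase GCN2, was at −0.32 ± 0.11 with anti-TGF-β and 0.34 ± 0.11 with WT, and Acy3, an aminoacylase, at 0.35 ± 0.15 and −0.70 ± 0.15, both with an adjusted p of 0.0924 for the difference in edgeR. In the list of nuclear respiratory chain genes 56 of 78 had a positive interaction with WT at an unadjusted p under 0.05 and none a negative one, against 2013 positive and 2516 negative of all 14760 genes. With isotype none of the list was positive or negative, and with FcD 27 were positive and 1 negative. With WT, 61 of 79 ribosomal protein genes and 20 of 34 proteasome genes were positive too, with none and 1 negative. The respiratory chain genes had a median length of 1631 bases. The shortest group of genes (median 1696 bases) had a median interaction with WT of 0.28. List counts for the interactions were not made with the length trend removed.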

How the data were processed

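Tumor RNA of 40 mice was sequenced as stranded mRNA libraries with paired-end reads. The authors deposited raw counts per gene without normalization, and the submitters' processing notes name STAR 2.5.3a, SAMtools 1.6, HTSeq 0.9.1 and GRCm38. Every one of the 40 columns of the table entered the analysis, so 0 were set aside. The table had 54087 genes, 31326 of them with at least 1 count, and 27 names had been turned into dates and were not interpreted. Mice are named by the library number of their label.

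Counts were tested with edgeR 4.0.16 in R 4.3.3 (limma 3.58.1), using TMM normalization, filterByExpr by group, which left 14760 genes, and robust quasi-likelihood fits of 1 model with 8 groups and all 40 mice. A gene was called at a Benjamini-Hochberg adjusted p under 0.05. The common biological coefficient of variation was 0.233. Interactions were contrasts of 4 groups in the same model. CPM values were scaled by TMM library sizes, and list levels are means of log2 CPM with a prior count of 2. The test was checked on simulated counts. Between mice of 1 group, chi-square per gene was 10.7 to 82.7, far above sampling noise, so no library was counted as a copy. Intervals are standard errors between mice.

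Alternatives were DESeq2 1.42.0, its size factors, no filter, the library part (41 to 60 against 61 to 80, the same split as that by Ddx3y and Xist) as a covariate, only the 10 mice compared, and each mouse left out. Removal of each library's gene-length trend (lowess on log2 length, 12761 genes) and of mice 48 and 53 together were added after seeing the data. Genes were named as the 15 higher and 15 lower genes with the smallest p and no overlap between groups, the 3 members of each list with the smallest p, 35 fixed genes and the 3 leading genes of each interaction. Xaf1, Myh1, Xist and Ddx3y were named after their values were seen. The members, the 58 gene lists and the tests were chosen with earlier results of these data known. Gene positions are of GRCm38, and promoter sequences are of RefSeq on GRCm38.p6. Some items are not reported here.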

Additional observations from a re-analysis of the deposited data

Results flagged for a closer look

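The highest or lowest mouse lay farther from the others than Dixon's 95% limit in 48 of 324 groups of 5 mice tested. Of these 48, 16 were for list levels and 32 for genes. The limit assumes normally distributed values, for which it gives about 1 in 20 by chance. Single genes were tested as unlogged CPM, some of them resting on few reads. Some were named after their values were seen or for lack of overlap, and some lists share genes. The count of 48 therefore cannot be set against that chance rate. Mouse 48 accounted for 22 of the 48 groups, mouse 53 for 12 and mouse 68 for 7. No cause was tested.

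Mouse 48 stood above the other 4 mice given anti-TGF-β in mean log2 CPM of T cell cytokines (2.001), checkpoint and exhaustion genes (3.83), naive and memory T cell genes (3.81), B cell and plasma cell genes (3.73), neutrophil genes (4.24), endothelial genes (5.23), adipocyte genes (5.67), lymph node stroma and follicle genes (2.51), and arginine and tryptophan metabolism genes (4.65). It was also highest in the experimental TNFα signature (5.30), the IL-1β signature (5.48) and the TGF-β1 signature in CD4+ T cells (4.89). In single genes it was the highest for Acta2 (45.0 CPM), Plin1 (28.0 CPM), Slc4a1 (20.3 CPM), Igkc (59.3 CPM), Jchain (15.5 CPM), Myl1 (2.11 CPM), Myh1 (1.33 CPM), Foxp3 (3.12 CPM) and Lrrc32 (14.4 CPM), and the lowest for Kifc3 (48.3 CPM).

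Mouse 53 stood above the other 4 mice with the combination in TGF-β ligands and activation genes (mean log2 CPM of 5.42). It was the highest for Cxcr6 (14.4 CPM), Cd274 (230.5 CPM), Il1rap (26.1 CPM), Itgav (135.1 CPM), Col6a3 (101.5 CPM), Setmar (1.90 CPM), Plin1 (8.11 CPM), Adgre1 (220.2 CPM), Lrrc32 (9.70 CPM) and Myl1 (0.152 CPM), and the lowest for Acta1 (0 CPM). Mouse 68 was the highest with the combination for B cell and plasma cell genes (mean log2 CPM of 4.53), lymph node stroma and follicle genes (3.46), Igkc (313.6 CPM), Jchain (84.2 CPM), Ifi30 (113.7 CPM) and Trdc (3.77 CPM), and the lowest for Intu (0.135 CPM). Mouse 66 was the lowest with the combination for T cell cytokines (mean log2 CPM of 0.393).

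Among the other mice given anti-TGF-β, mouse 72 was the highest for Gzma (44.1 CPM) and Psme2 (357.7 CPM), mouse 79 the lowest for Cdc42ep2 (23.8 CPM) and Pet100 (9.86 CPM), mouse 43 the highest for Prox2 (4.65 CPM) and mouse 59 the highest for Gzmg (182.0 CPM). The overlap of Gzma and Psme2 between the groups rests in part on mouse 72.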

How the results depend on the processing

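The count of 0 genes called by edgeR for the addition of anti-PD-1 to anti-TGF-β held in every edgeR alternative run, and DESeq2 called 1. Genes at an unadjusted p under 0.05 numbered 1453, but 775 with only the 10 mice in the model, 602 with the library part added to it, 903 with the gene-length trend removed and 3102 without mice 48 and 53. With each mouse left out they ran from 526 (without mouse 62) to 3725 (without mouse 53).

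For the interactions, DESeq2 called 2 genes against isotype and 1333 against anti-GARP:TGF-β1 WT, and edgeR without mice 48 and 53 called 1 and 2494. With each mouse left out, edgeR called 0 to 1 and 0 to 3965, the highest counts without mouse 53. For anti-PD-1 on isotype DESeq2 called 1 gene. For anti-PD-1 on WT it called 619, and edgeR without mice 48 and 53 called 995. For anti-PD-1 on FcD, DESeq2 called 199, edgeR with the library part called 4 and edgeR without mice 48 and 53 called 250. The cause of these shifts was not tested.

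Of 103 named genes with a fold change, 93 kept their sign in every alternative that fitted them, 87 of them in all 18 and 6 in the 16 or 17 in which they passed the filter or had a length. Without mice 48 and 53, Acta2 was at 0.25, Slc4a1 at 0.86, Adgre1 at 0.10 and Ptprc at 0.0096 on the log2 scale, and Ptprc was at 0.0045 with the gene-length trend removed. With each mouse left out, the log2 fold change ran from −0.55 to 0.34 for Acta2, −2.64 to 1.01 for Plin1, −2.17 to 0.70 for Slc4a1, −1.58 to 3.44 for Igkc, −1.46 to 3.55 for Jchain, −1.81 to 1.26 for Gzmg, −0.45 to 0.24 for Ptprc, −0.51 to 0.43 for Adgre1, −0.58 to 0.31 for Lrrc32 and −0.11 to 0.085 for Tgfb3. Of 59 medians of lists and of all genes, 33 changed sign in at least 1 alternative, and 5 moved by more than 1 SD of the list's level in the 5 mice given anti-TGF-β. That SD includes mouse 48, so it is a wide limit. The fibroblast median went from −0.21 to 0.39 without mouse 48 and did not count as moved, because the SD was 0.91. No paired analysis was possible because the labels give mice no number shared between groups. At these depths, genes under about 1 CPM rest on few reads.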
